A study of Mus musculus with 12 samples.

Results

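Lce1g, Crisp1 and Gimap6 are 3 mouse genes best known from skin, the male reproductive tract and lymphocytes. They were at or near 0 FPKM in cultured neurons carrying the fluorescent protein mCherry and were far above that in neurons that over-expressed H-Ras(G12V), a Ras GTPase locked in its active state. FPKM is the number of sequenced fragments corrected for the length of the transcript and the size of the library. The 3 genes were picked by symbol because of this contrast, so their values in it are given as a description with no test. They are 3 of 18223 genes in the table of the oncogene model, which sets H-Ras(G12V) against mCherry, and 3 of 17800 genes in a second table with etoposide and DMSO libraries. All 12 FPKM columns were used.

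The series compared models of neuronal ageing in primary neurons of C57BL/6 mice by sequencing of mRNA selected with oligo-dT beads. Each of the 4 groups had 3 libraries, all taken on day 10. The H-Ras(G12V) group over-expressed the protein through an adeno-associated virus, and its control is labelled wild type with mCherry. The etoposide group was wild type and received this topoisomerase II inhibitor, with the solvent DMSO given to its wild-type control. The labels do not give the age of the animals, the brain region, the promoter or the species of the transgene, or how many cultures or animals the 3 libraries of a group stand for. The p-values therefore cover no more than the variation among the libraries given, and part of it may be technical. The treatment tags of the 6 etoposide and DMSO libraries give the opposite group to their titles. Groups were taken from the titles, which the column names follow, and every direction given for etoposide depends on that choice.

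Between 11829 and 12728 genes per library reached 1 FPKM, and the tables give no sequencing depth. Mouse Hras was listed at 38.4, 51.6 and 33.5 FPKM in the H-Ras(G12V) libraries and at 45.9, 43.0 and 44.2 FPKM in the mCherry libraries, which does not check the labels because the species of the transgene is not given. Of the controls, mCherry library 3 stood apart, with rank correlations of 0.963 to 0.965 with its own group and 0.963 to 0.968 with the H-Ras(G12V) libraries, against 0.993 between mCherry libraries 1 and 2. Etoposide library 3 had rank correlations of 0.921 to 0.946 with its own group and 0.969 to 0.986 with the DMSO libraries. The counts of listed genes called are given with and without the library that stood apart.

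Lce1g encodes a late cornified envelope protein, one of the small proteins that transglutaminases cross-link beneath the membrane of dying keratinocytes to build the skin barrier. Its gene lies in the epidermal differentiation complex among many close copies. Crisp1 encodes a cysteine-rich secretory protein that the epididymis releases onto maturing sperm and that modulates ion channels. Gimap6 encodes a member of the GIMAP GTPases, known from lymphocyte survival, which binds GABARAP-type ATG8 proteins in autophagy.

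The sequence upstream of each gene is shown because the genes were high in the same 3 libraries and because Crisp1 and its neighbour Crisp3, which also rose, have nearly the same one. The sequences are RefSeq's for build GRCm38.p6, run 5′ to 3′ and hold the 250 bases before the transcript start. All 3 genes had an entry. In the Crisp1 and Crisp3 lines, capitals mark the bases at which the pair differs. In the Gimap6 line they mark motif matches, and the Lce1g line has none.
Crisp1, chr17:40319208-40319457, minus strand: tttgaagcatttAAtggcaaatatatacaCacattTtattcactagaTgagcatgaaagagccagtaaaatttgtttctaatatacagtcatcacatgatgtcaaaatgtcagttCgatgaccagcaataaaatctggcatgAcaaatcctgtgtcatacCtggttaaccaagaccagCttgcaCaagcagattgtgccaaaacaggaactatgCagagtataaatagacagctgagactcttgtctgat
Crisp3, chr17:40242289-40242538, minus strand: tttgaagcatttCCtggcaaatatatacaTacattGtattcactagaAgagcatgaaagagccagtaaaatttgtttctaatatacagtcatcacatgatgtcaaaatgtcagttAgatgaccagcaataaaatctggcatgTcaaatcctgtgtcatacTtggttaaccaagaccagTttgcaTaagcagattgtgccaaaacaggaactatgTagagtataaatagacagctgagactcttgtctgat
Lce1g, chr3:92752339-92752588, minus strand: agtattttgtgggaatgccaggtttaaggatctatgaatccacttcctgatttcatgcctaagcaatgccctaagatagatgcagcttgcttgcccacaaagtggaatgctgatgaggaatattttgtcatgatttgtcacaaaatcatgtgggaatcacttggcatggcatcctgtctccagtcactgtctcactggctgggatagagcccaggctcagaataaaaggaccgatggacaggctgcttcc
Gimap6, chr6:48708245-48708494, minus strand: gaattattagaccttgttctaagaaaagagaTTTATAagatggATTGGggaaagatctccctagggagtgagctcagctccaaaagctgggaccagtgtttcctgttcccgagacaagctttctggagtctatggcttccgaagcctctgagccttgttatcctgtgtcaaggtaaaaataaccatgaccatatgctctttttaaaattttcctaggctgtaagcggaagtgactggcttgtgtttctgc

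Crisp1 and Crisp3 had the same base at 239 of these 250 positions (95.6%). The other pairs of upstream windows were unlike each other. Over 300 bases, that is 250 before the start and 50 from it, the windows of Lce1g, Crisp1 and Gimap6 matched pairwise at 21.3% to 29.7% of positions when laid side by side with no gaps. Sequence similarity outside these windows was not examined.

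Motifs were searched on both strands of the 300-base windows and compared with 32851 windows of the same length. They were AP-1 (TGANTCA, in 7.81% of all windows), CRE (TGACGTCA, 1.79%), ETS (CCGGAA, 14.9%), a TATA box (TATAAA, 13.6%), a GC box (GGGCGG, 35.7%) and a CCAAT box (CCAAT, 37.4%). Crisp1 and Crisp3 each held 1 match, a TATAAA that begins 31 bases before the start. Gimap6 held a TATAAA match and a CCAAT match, both on the opposite strand, at 219 and 207 bases before the start. Lce1g held no match to the 6 motifs. The windows were poor in CpG dinucleotides, with 1 in Lce1g, 2 in Crisp1 and 4 in Gimap6 against a median of 7 over all windows. These matches describe letters in a window and not sites of binding.

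Lce1g was listed at 27.6, 55.9 and 15.5 FPKM in H-Ras(G12V) libraries 1, 2 and 3 and at 0 in all 3 mCherry libraries. Its H-Ras(G12V) mean was 33.0 ± 20.7 FPKM (SD, n = 3). The 3 oncogene libraries differed widely among themselves, the highest being 3.60 times the lowest, and each lay above every control. No fold is given for Lce1g, since the controls are listed at 0.

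Crisp1 was at 42.5, 26.3 and 23.3 FPKM in the H-Ras(G12V) libraries and at 0.47, 0.05 and 0 FPKM in the mCherry libraries. The means were 30.7 ± 10.3 FPKM and 0.173 ± 0.258 FPKM (SD, n = 3 each), a ratio of 177. Nearly all of the control mean came from mCherry library 1. Without it the ratio was 1228, on a control mean of 0.025 FPKM, near the 2-decimal limit of the values. It was 131 without mCherry library 2 and 118 without library 3, so the size of the ratio is not firm. Library 1 was the highest of both groups, and the groups were far from overlapping.

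Gimap6 was at 44.3, 36.6 and 54.8 FPKM in the H-Ras(G12V) libraries and at 0.09, 0 and 1.15 FPKM in the mCherry libraries. The means were 45.2 ± 9.14 FPKM and 0.413 ± 0.640 FPKM (SD, n = 3 each), a ratio of 109. Nearly all of the control level came from mCherry library 3, the one that stood apart. Without it the ratio was 1005, on a control mean of 0.045 FPKM. It was 78.6 without mCherry library 1 and 72.9 without library 2, so the size of this ratio is not firm either. These are bulk libraries, so for each gene a few cells with much RNA and many cells with little cannot be told apart.

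**Figure D1:**
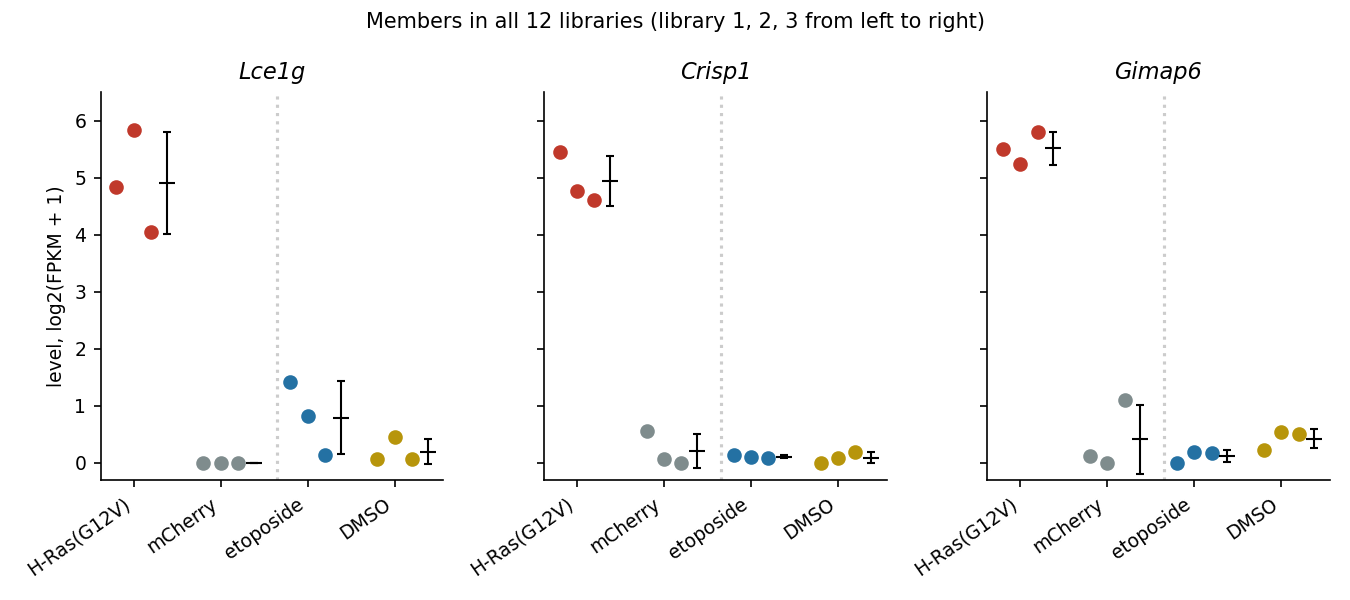
Level of Lce1g, Crisp1 and Gimap6 in each of the 12 libraries, as log2(FPKM + 1), with 1 point per library, bars for the group mean and SD, and a panel per gene. All 3 genes are high in the 3 H-Ras(G12V) libraries only, between 15.5 and 55.9 FPKM, and at 1.67 FPKM or less in the other 9.

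Within the oncogene libraries the 3 genes stood at a middle to high level of the transcriptome. Gimap6 lay above 88.1% of all listed genes, Lce1g above 83.4% and Crisp1 above 82.2%. FPKM is corrected for length, so the levels can be compared, and their ranges over the 3 libraries overlapped for every pair of the 3 genes. In the mCherry libraries Gimap6 lay above 26.3% of genes and Crisp1 above 21.5%.

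On the scale of log2(FPKM + 1), the difference between the group means was 5.10 for Gimap6, 4.90 for Lce1g and 4.73 for Crisp1. These ranked 4, 5 and 6 among 18223 differences ordered by size, after the neuropeptide gene Gal (7.13), Sprr1a (6.11) and Hmga1b (5.71). The order of the 3 genes among themselves is not firm, since with the pseudocount at 0.1 FPKM the differences were 8.18 for Lce1g, 7.28 for Gimap6 and 7.18 for Crisp1. Without mCherry library 3 the difference of Gimap6 was 5.45, that of Lce1g 4.90 and that of Crisp1 4.63.

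The 3 genes did not rank the oncogene libraries in the same order. Lce1g was highest in library 2 and Crisp1 in library 1, and both were lowest in library 3, where Gimap6 was highest. The coefficient of variation over the 3 libraries was 62.7% for Lce1g, 33.7% for Crisp1 and 20.2% for Gimap6. The median over the 6644 genes with a mean between 10 and 100 FPKM in these libraries was 11.2%, and 99.9% of these genes varied less than Lce1g, 98.5% less than Crisp1 and 86.4% less than Gimap6.

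Few genes showed so sharp a difference. A gene was counted as switched on when all 3 H-Ras(G12V) libraries were at 10 FPKM or more and all 3 mCherry libraries under 2 FPKM, which 12 of 18223 genes (0.0659%) met. The mirror image, switched off, was met by 4 genes (0.022%), namely the extracellular matrix genes Col3a1, Lum, Dcn and Vtn. Lce1g, Crisp1 and Gimap6 are among the 12 by choice. For comparison, groups that did not overlap, with H-Ras(G12V) above, were found for 20.3% of all listed genes.

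The other 9 switched-on genes were named after their values were seen. They are Gal, the chromatin architectural factors Hmga1b and Hmga2, the cornified envelope gene Sprr1a, the muscle acetylcholine receptor subunit Chrna1, the protease inhibitor Serpinb2, the urokinase gene Plau, the prostaglandin-degrading enzyme Hpgd and Ccdc63. Ordered by their lowest oncogene library, Gimap6 stood between Hmga1b and Sprr1a, and Crisp1 and Lce1g stood between Chrna1 and Serpinb2. Chrna1 was at 32.0, 34.0 and 34.9 FPKM in the H-Ras(G12V) libraries against 0.15, 0.06 and 0.96 FPKM in the mCherry libraries, at about the level of the 3 genes and with less spread. Serpinb2 was at 26.6, 20.8 and 11.7 FPKM against 0.28, 0.11 and 0.07 FPKM, with the same lowest library as Crisp1 and Lce1g.

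**Figure D2:**
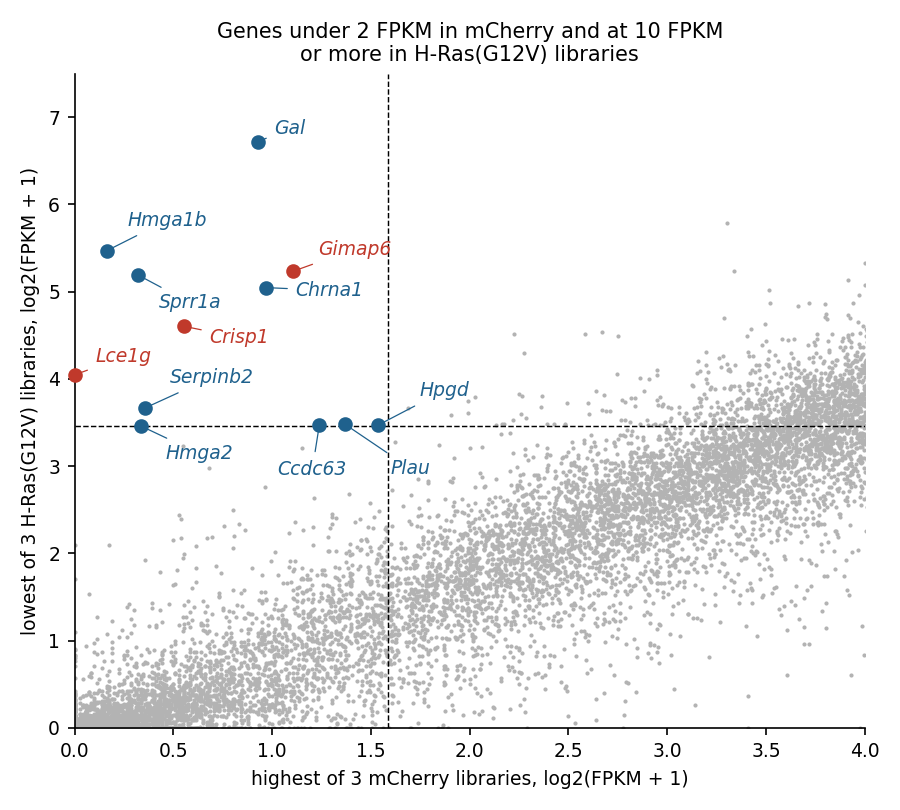
Lowest H-Ras(G12V) library (vertical axis) against highest mCherry library (horizontal axis) of each listed gene, both as log2(FPKM + 1), with the horizontal axis shown from 0 to 4. The upper left corner beyond the dashed lines holds the 12 coloured genes at 10 FPKM or more in every H-Ras(G12V) library and under 2 FPKM in every mCherry library, with Lce1g, Crisp1 and Gimap6 in red.

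All 9 of these other genes are also in the etoposide table, where 7 of them stayed under 10 FPKM in every library. The exceptions are Hmga1b, which reached 412 FPKM there, and Plau, which reached 107 FPKM. Lce1g, Crisp1 and Gimap6 stayed under 2 FPKM in every etoposide and DMSO library. No gene met the rule for being switched on in that table (0%), and 4 of 17800 (0.0225%) were switched off. Without etoposide library 3, 23 genes were switched on there, none of them Lce1g, Crisp1 or Gimap6.

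The 3 genes were named for their levels with H-Ras(G12V), and the comparison of etoposide with DMSO was tested, although earlier results of both tables were known when they were chosen. All 3 genes fell under the filter of a mean of 1 FPKM over the 6 libraries. They were therefore compared by exact two-sided permutation of the 6 libraries, which with 3 against 3 cannot give a p below 0.1. In the fit across 12371 genes of this table, limma with Benjamini-Hochberg adjustment called 0 genes higher (0%) and 56 lower (0.453%), with 918 higher and 806 lower at an unadjusted p under 0.05.

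Lce1g was at 1.67, 0.76 and 0.10 FPKM in the etoposide libraries and at 0.05, 0.36 and 0.05 FPKM in the DMSO libraries. The difference of the log2(FPKM + 1) means was 0.60 (exact permutation p = 0.2, adjusted over the 3 genes 0.3). Etoposide libraries 1 and 2 lay above every DMSO library and library 3, the one that stood apart, lay among them. Without etoposide library 3 and with no filter on low values, a fit chosen after seeing the data, the difference was 0.92 with a limma adjusted p of 0.0327, where 13.6% of 17599 genes were called higher and 7.97% lower. In that fit the adjusted p was 0.778 for Crisp1 and 0.0899 for Gimap6. With all 6 libraries and no filter the limma adjusted p of Lce1g was 0.432. The summed level of the keratinocyte markers was 58.3 to 92.0 FPKM in etoposide libraries 1 and 2, 41.8 FPKM in library 3 and 36.7 to 43.1 FPKM in the DMSO libraries. Without etoposide library 3, 4 of 8 tested keratinocyte markers were called higher (Perp, Sfn, Dsc2 and Cdsn) and Jup lower, where limma called 18.4% of 12403 genes higher and 13.4% lower. The part of these markers in the level of Lce1g was not tested.

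Crisp1 was at 0.10, 0.07 and 0.06 FPKM in the etoposide libraries and at 0, 0.06 and 0.14 FPKM in the DMSO libraries. The groups overlapped, with a difference of 0.02 on the log2 scale (exact permutation p = 0.9, adjusted over the 3 genes 0.9). Gimap6 was at 0, 0.14 and 0.13 FPKM with etoposide and at 0.17, 0.46 and 0.41 FPKM with DMSO. Every etoposide library of Gimap6 lay below every DMSO library, as for 7.43% of all listed genes in this direction, and the difference was -0.30 (exact permutation p = 0.1, the smallest this design allows, and 0.3 adjusted over the 3 genes). At such levels a change in either direction may not be detectable.

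Across the 4 groups, then, each gene had its highest level with H-Ras(G12V) and lay under 1 FPKM on average in the other 3. The 2 tables were treated as normalised separately, so their levels are set side by side and not tested against each other. Lce1g averaged 0.843 ± 0.788 FPKM with etoposide and 0.153 ± 0.179 FPKM with DMSO. Crisp1 averaged 0.0767 ± 0.0208 and 0.0667 ± 0.0702 FPKM, and Gimap6 0.0900 ± 0.0781 and 0.347 ± 0.155 FPKM (SD, n = 3 each). For Lce1g the mCherry libraries, all at 0, lay below the others, and the etoposide and DMSO libraries overlapped. For Crisp1 all 3 low groups overlapped, and for Gimap6 the mCherry libraries overlapped with both others.

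Each of the 3 genes has relatives that share its protein family, and these were not used in the choice. A list of 75 relatives held cornified envelope genes, genes of the CAP superfamily to which the CRISP proteins belong, and GIMAP genes, with Lce1g, Crisp1 and Gimap6 left out. Of these, 57 are in the H-Ras(G12V) table, 20 were at 0 in all 6 libraries and 42 were under 1 FPKM in all 6. Only 6 passed the filter of a mean of 1 FPKM. By limma with Benjamini-Hochberg adjustment over all genes tested, 5 of these 6 rose and none fell, where 10.3% of 12724 genes were called higher and 6.67% lower. Since 4 of the 6 (Sprr1a, Lce1f, Crisp3 and Gimap4) passed the filter only through their H-Ras(G12V) level, this count is a description. The same holds for the p-values given below for these 4 genes. With no filter on low values, 37 relatives entered the fit, and 8 were called higher and 0 lower, where 7.6% of 17602 genes were called higher and 4.33% lower. That count too is a description. Any gene above 0 in some library entered, and a gene at 0 in every mCherry library can only rise. Without mCherry library 3, with the filter, 5 of 8 were called higher and 0 lower, where these shares were 25.4% and 19.5% of 12735 genes. Over all 57 listed relatives, the H-Ras(G12V) libraries lay above the mCherry libraries without overlap for 13 and below for 0, where these figures were 20.3% and 13.2% of all listed genes.

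Of the cornified envelope genes, 53 are on the list, 39 in the table and 3 passed the filter, of which 2 rose. Sprr1a, a small proline-rich envelope precursor also known from injured sensory neurons, was at 120, 130 and 35.5 FPKM in the H-Ras(G12V) libraries against 0.25, 0.25 and 0.13 FPKM in the mCherry libraries (log2 fold change 6.11 ± 0.46 SE, limma adjusted p = 0.00151, with no filter 0.00383 and without mCherry library 3 0.000126). It was highest in library 2 and lowest in library 3, as Lce1g was. Lce1f, the gene next to Lce1g, was at 2.65, 2.79 and 0.63 FPKM against 0 in all 3 mCherry libraries (limma adjusted p = 0.0258, with no filter 0.0347). That call was lost without mCherry library 1 (adjusted p = 0.0759) or library 2 (0.0741).

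The loricrin gene Lor, a main component of the envelope, was at 2.30 ± 0.618 FPKM with H-Ras(G12V) and 2.86 ± 0.475 FPKM with mCherry (SD, n = 3 each) and was not called (limma adjusted p = 0.411). The involucrin gene Ivl, an early scaffold of the envelope, was under the filter, at 1.21, 3.75 and 0.31 FPKM against 0 in the mCherry libraries. Lce1a2 was at 0.78, 1.96 and 0.16 FPKM against 0, and Lce3c at 0, 1.5 and 0.77 FPKM against 0. Ivl and Lce1a2 thus ordered the 3 oncogene libraries as Lce1g did, with library 2 the highest and library 3 the lowest. Lce3c was lowest in library 1. How many of all genes share this order of the 3 oncogene libraries was not counted. Over all 6 libraries, 1 of 12723 genes, Lce1f, had a rank correlation with Lce1g above 0.99. Such a value also depends on the ties of Lce1g at 0 in the mCherry libraries. Crct1 was at 1.09, 1.26 and 0.16 FPKM against 0, 0.30 and 0.15 FPKM, with overlap. Sprr2k and the trichohyalin gene Tchh also overlapped between the groups, and 19 genes of the list were at 0 throughout.

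In the CAP superfamily, 14 relatives of Crisp1 are on the list, 12 in the table and 2 passed the filter, and both rose. Crisp3, the gene next to Crisp1, was at 2.39, 1.93 and 1.89 FPKM in the H-Ras(G12V) libraries against 0, 0.05 and 0 FPKM in the mCherry libraries (log2 fold change 1.59 ± 0.15 SE, limma adjusted p = 0.00216, with no filter 0.00237). It was highest in library 1 and lowest in library 3, as Crisp1 was. Glipr2, a Golgi-associated member of the superfamily, was at 16.4 ± 2.08 FPKM against 8.52 ± 1.80 FPKM (SD, n = 3 each, limma adjusted p = 0.0213), a call that was lost under 6 of 14 alternatives, with an adjusted p of up to 0.0855. It held without mCherry library 3 (0.00351). The secreted Crispld2 was under the filter, at 0.66, 1.31 and 1.64 FPKM against 0.45, 0.38 and 0.12 FPKM. Crispld1 and Glipr1 overlapped between the groups.

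Of the GIMAP family, 8 relatives of Gimap6 are on the list, 6 in the table and 1 passed the filter and rose. This was Gimap4, the gene next to Gimap6, a GTPase linked to T cell death, at 2.08, 1.62 and 2.67 FPKM against 0, 0 and 0.20 FPKM (log2 fold change 1.54 ± 0.18 SE, limma adjusted p = 0.00442, with no filter 0.00480). Gimap4 was highest in library 3 and lowest in library 2 of the oncogene group, as Gimap6 was. Its only control value above 0 was in mCherry library 3, where Gimap6 also had its highest control value. Other genes share such orders, though how many share the order of the 3 oncogene libraries alone was not counted. Of 12723 genes, 239 put all 6 libraries in exactly the order of Gimap6, and 30 in that of Crisp1. Without mCherry library 3 the limma adjusted p of Gimap4 was 0.000344, that of Crisp3 0.000179 and that of Lce1f 0.0110. These genes entered the fit through their H-Ras(G12V) level, so the p-values are descriptions.

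**Figure D3:**
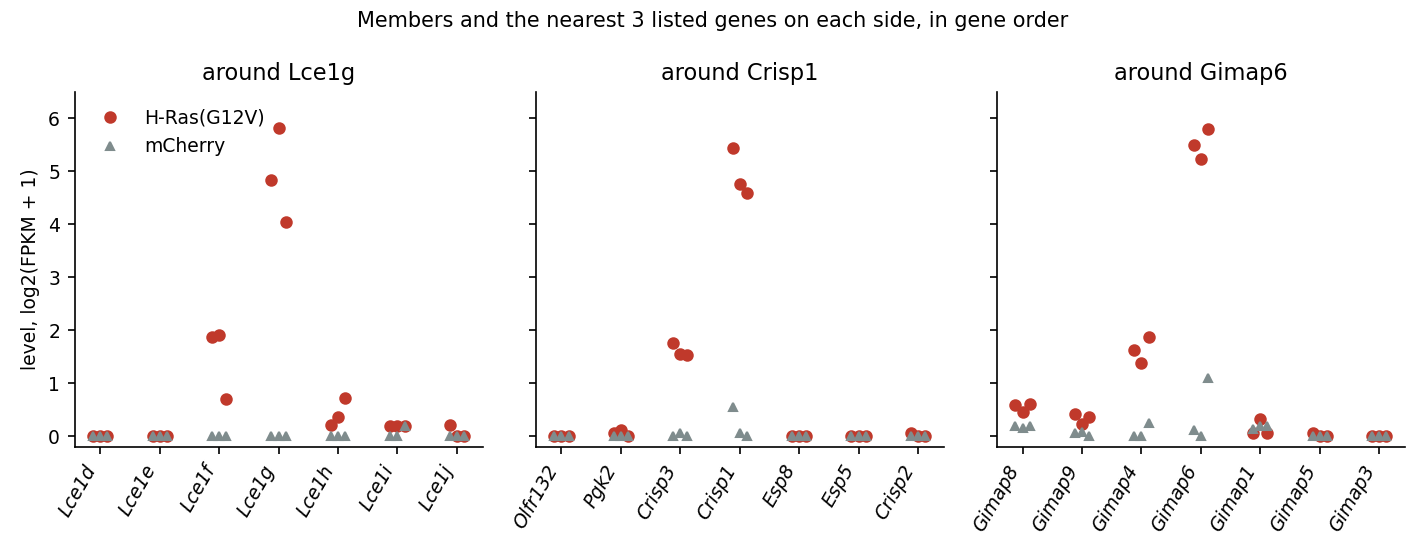
Level of Lce1g, Crisp1 and Gimap6 and of the 3 listed genes nearest on each side in gene order (horizontal axis), as log2(FPKM + 1), with 1 point per library. In each panel the gene in the middle stands highest, 1 directly adjacent relative reaches 1.62 to 2.79 FPKM in most H-Ras(G12V) libraries, and the other 5 stay under 1 FPKM.

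Gene order was taken from RefSeq's GRCm38.p6 table. Of the 3 listed genes nearest on each side of Lce1g, only Lce1f passed the filter, and the other 5 were under 1 FPKM in all 6 libraries of the table. Around Crisp1 the same held, with Crisp3 the exception and the phosphoglycerate kinase gene Pgk2 and Crisp2 among the rest. Around Gimap6 it held with Gimap4 the exception, and Gimap8, Gimap9, Gimap1, Gimap5 and Gimap3 were all under 1 FPKM. Each exception was directly adjacent in this order.

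Lower levels also differed among these neighbours. Gimap8 was at 0.51, 0.38 and 0.53 FPKM in the H-Ras(G12V) libraries against 0.14, 0.12 and 0.15 FPKM in the mCherry libraries, and Gimap9 at 0.34, 0.17 and 0.29 FPKM against 0.05, 0.06 and 0 FPKM. With no filter on low values limma called both higher (adjusted p = 0.0126 for Gimap8 and 0.0316 for Gimap9). Lce1h, at 0.16, 0.29 and 0.65 FPKM against 0, also did not overlap and was not called (limma adjusted p = 0.0722).

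Within its family, each gene held most of the summed FPKM of the oncogene libraries. Lce1g made up 87.6%, 88.7% and 86.8% of the sum over the 15 listed Lce genes in libraries 1, 2 and 3. Crisp1 made up 94.6%, 93.2% and 92.5% of the sum over 3 Crisp genes, and Gimap6 93.6%, 93.8% and 93.9% over 7 Gimap genes.

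The level of the adjacent relative in percent of its neighbour was 4.70, 4.43 and 4.87 for Gimap4 and Gimap6 in the 3 oncogene libraries. It was 5.62, 7.34 and 8.12 for Crisp3 and Crisp1, and between 4.06 and 9.60 for Lce1f and Lce1g. How far reads of a gene were assigned to its neighbour was not tested, and the sources used here do not state the read length. In GENCODE M21 transcripts, 17.8% of the 50-base words of Lce1g occur in other genes, 12 in number, 13.8% of those of Lce1f, and 2.41% of those of Crisp1, shared with Crisp3. For Gimap6 the share was 0.0565% and for Gimap4 and Sprr1a it was 0. The split of reads within the Lce genes, and between Crisp1 and Crisp3, is uncertain.

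In the etoposide table, 30 of the 75 relatives are listed, 4 passed the filter and none was called. Without etoposide library 3, Glipr2 was called higher and Lor lower, of 4 tested. In that fit limma called 18.4% of 12403 genes higher and 13.4% lower. Sprr1a was at 2.16, 0.95 and 0 FPKM in etoposide libraries 1, 2 and 3 against 0, 0.07 and 0.06 FPKM with DMSO. Lce1a2 was at 1.13, 0.60 and 0 FPKM against 0 in all 3 DMSO libraries. Both ordered the etoposide libraries as Lce1g did. Crisp3 and Gimap4 reached no more than 0.03 FPKM in any library of that table.

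The transcripts of the 5 ATG8 genes, whose proteins include binding partners of GIMAP6, were measured in every library, and none was called. Gabarap was at 328, 295 and 303 FPKM in the H-Ras(G12V) libraries and at 291, 278 and 231 FPKM in the mCherry libraries, without overlap (limma adjusted p = 0.288). Gabarapl2 was at 234, 212 and 211 FPKM in the H-Ras(G12V) libraries and at 194, 207 and 264 FPKM in the mCherry libraries. The median log2 fold change of Gabarap, Gabarapl1, Gabarapl2, Map1lc3a and Map1lc3b was -0.01, where the median over all genes tested was 0.05. Map1lc3a was called lower without mCherry library 3, where 19.5% of 12735 genes were called lower. None of the 5 was called with etoposide, with or without its library 3.

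Markers of the cell types in which the 3 genes are normally found were set beside them. Of 36 keratinocyte markers, 6 passed the filter and none was called. Their summed level was 45.3 to 53.1 FPKM in the H-Ras(G12V) libraries and 37.7 to 50.8 FPKM in the mCherry libraries, most of it from Itga6, Jup and Perp, and Krt14, Dsg3 and Pkp3 were at 0 in all 6. The H-Ras(G12V) libraries lay above the mCherry libraries without overlap for 12 of the 36 and below for 2, where these shares were 20.3% and 13.2% of all listed genes. With no filter on low values, 6 of 33 were called higher (Krt6a, Krt16, Krt17, Grhl3, Lama3 and Lamb3) and Dsp lower. In that fit 7.6% of 17602 genes were called higher and 4.33% lower. Without mCherry library 3, 0 of 5 tested were called higher and 2 lower (Jup and Krt1), where these shares were 25.4% and 19.5% of 12735 genes. Krt5, a keratin of basal keratinocytes picked after its values were seen, was at 0.23, 0.57 and 0.20 FPKM against 0.03 FPKM in each control.

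Of 32 epididymis and male tract genes, 9 are in the table, none passed the filter, and their sum was 0.58 to 0.97 FPKM against 0.17 to 0.32 FPKM, with Lcn12 and Defb30 at 0. Of 30 lymphocyte markers, 24 are in the table, 2 passed the filter and none was called. Their sum was 5.42 to 5.82 FPKM against 3.93 to 5.10 FPKM, with Tcf7, Lck and Zap70 the highest and the B cell markers Ms4a1 and Blk at 0. The mean was higher with H-Ras(G12V) for 17 of the 24 and lower for 4. The groups did not overlap for 4 of the 24, all with H-Ras(G12V) above, as for 20.3% of all listed genes. With no filter, 2 of 22 were called higher (Zap70 and Pax5) and 0 lower, where these shares were 7.6% and 4.33% of 17602 genes. Without mCherry library 3, no epididymis gene passed the filter, so none could be called. In that fit 0 of 2 tested lymphocyte markers were called, where 25.4% of 12735 genes were called higher and 19.5% lower. The pan-leukocyte gene Ptprc, picked after its values were seen, was at 0.28, 0.32 and 0.11 FPKM against 0.31, 0.45 and 0.02 FPKM. The part of these lists in the levels of Lce1g, Crisp1 and Gimap6 was not tested.

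Of 22 endothelial markers, 7 passed the filter, 1 rose and 2 fell, where 10.3% of all tested genes were called higher and 6.67% lower. Mfsd2a, a lipid transporter of the blood-brain barrier that other cells also express, was at 65.1 ± 10.3 FPKM against 15.9 ± 2.60 FPKM (SD, n = 3 each, limma adjusted p = 0.00195), while Eng (adjusted p = 0.0215) and Ocln (0.0231) fell. The summed level was 144 to 151 FPKM against 72.6 to 106 FPKM, most of it from Mfsd2a and Slco1c1. Slco1c1 averaged 63.6 FPKM with H-Ras(G12V) and 48.9 FPKM with mCherry. The mean was higher with H-Ras(G12V) for 11 of the 22 and lower for 10. Sox17 was at 0, and Pecam1, picked after its values were seen, was at 0.14, 0.06 and 0.05 FPKM against 0.14, 0.18 and 0.09 FPKM. H-Ras(G12V) lay above without overlap for 4 of the 22 and below for 6, where these shares were 20.3% and 13.2% of all listed genes. With no filter, 3 of 21 were called higher and 2 lower, where 7.6% of 17602 genes were called higher and 4.33% lower. The 3 were Mfsd2a, Vwf and Flt1. Flt1 was at 0.90, 0.83 and 0.98 FPKM against 0.07, 0.07 and 0.03 FPKM. Without mCherry library 3, 4 of 7 were called higher and 3 lower, where these shares were 25.4% and 19.5% of 12735 genes. The part of this list in the level of Gimap6 was not tested.

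**Figure D4:**
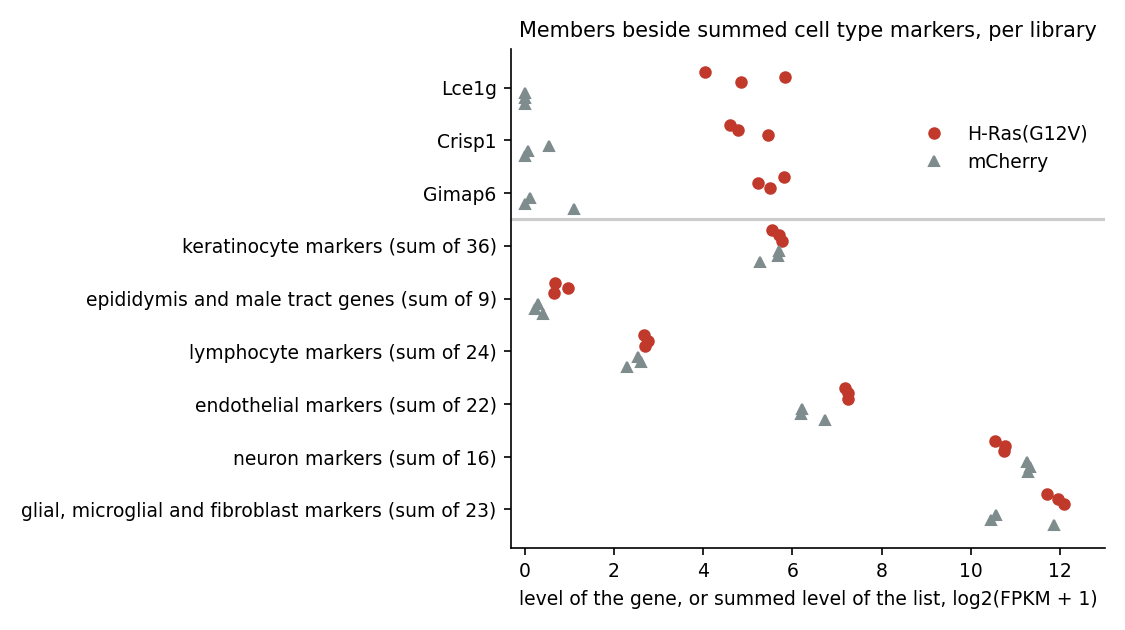
Level of Lce1g, Crisp1 and Gimap6 in the 6 libraries of the H-Ras(G12V) table, above the summed level of 6 marker lists, all as log2(FPKM + 1) on the horizontal axis with 1 point per library. The keratinocyte sums of the groups overlap, the epididymis, lymphocyte and endothelial sums are higher in every H-Ras(G12V) library, and the neuron sum is lower. Most of the endothelial sum comes from Mfsd2a and Slco1c1.

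Markers of the cells that such cultures hold also differed between the groups. Of 16 neuron markers, all tested, 1 rose (Nefm) and 4 fell (Rbfox3, Syn1, Elavl4 and Neurod6), and their sum was 1486 to 1749 FPKM with H-Ras(G12V) against 2430 to 2545 FPKM with mCherry. The even control sum held opposite differences in mCherry library 3. In mCherry libraries 1, 2 and 3, Tubb3 was at 704, 737 and 110 FPKM and Snap25 at 161, 175 and 564 FPKM. Of 23 glial, microglial and fibroblast markers, 18 were tested, 4 rose (Aldh1l1, Olig2, Cspg4 and Mbp) and 6 fell (Col1a1, Col1a2, Col3a1, Dcn, Lum and Pdgfrb), with a sum of 3350 to 4376 FPKM against 1406 to 3713 FPKM, the last being mCherry library 3. Over all tested genes, 10.3% were called higher and 6.67% lower. Without mCherry library 3, 5 of 16 neuron markers were called higher and 8 lower, and of 18 glial and other markers 12 higher and 6 lower. In that fit limma called 25.4% of 12735 genes higher and 19.5% lower. The glial control sum was then 1406 to 1516 FPKM. The part of these markers in the levels of Lce1g, Crisp1 and Gimap6 was not tested, and which cells held their RNA cannot be told apart in these libraries.

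The genes most like each of the 3 were taken by Pearson correlation of log2(FPKM + 1) over the 6 libraries, among 12723 genes, as a description, since the libraries fall into 2 groups and any gene that separates these scores high. For Lce1g they were the retinoic acid-degrading enzyme Cyp26b1 (0.997), Akr1b8, Ppil2, Mfng and Wasf2, with 40 genes above 0.99. For Crisp1 they were Slc43a3 (0.998), Ano10, Pdia4, S100a10 and Stx11, with 28 genes above 0.99. For Gimap6 they were the metalloprotease gene Tll1, Rhoc, Ets1, Chrna1 (0.998) and Rfx4, with 47 genes above 0.99. The correlation was 0.973 between Lce1g and Crisp1, 0.955 between Lce1g and Gimap6 and 0.974 between Crisp1 and Gimap6.

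These lists depend on the measure. Over the 12 libraries of both tables, 12645 genes were compared, with levels joined as deposited although the tables were treated as normalised separately. Any gene high with H-Ras(G12V) only scores high there. The 5 genes most like Lce1g were then Sprr1a (0.993), Gal, Odaph, Grem1 and Serpinb2, none of them among the first 5. For Crisp1 they were Nts (0.991), Pappa2, Chrna1, Gimap6 (0.981) and Col28a1, also none of the first 5. For Gimap6 they were Chrna1 (0.996), Fam187a, Pappa2, Pthlh and Crisp1, of which 1 was shared.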

How the data were processed

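Gene expression was measured by mRNA sequencing in 12 libraries of primary mouse neurons. Per the file headers, the authors deposited FPKM to 2 decimals for each gene and library, in 1 table per model. RSEM, Bowtie2, HISAT and mm9 are listed in the submitters' processing notes without versions or roles. Counts and depth were not used here, so precision is known only from the spread of 3 libraries.

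Values were analysed as log2(FPKM + 1), with a pseudocount of 1, by limma 3.58.1 in R 4.3.3 (lmFit and trended eBayes). Genes whose mean over the 6 libraries was under 1 FPKM were left out. Two-sided p-values had Benjamini-Hochberg adjustment over all genes tested, with a threshold of 0.05. Such fold changes understate the change of low genes. The fit was tested on simulated data. The 3 genes and the 10 gene lists were chosen with earlier results of these data known. Named genes are the 3 genes, relatives at 1 FPKM or more in any library, the highest and the called markers of each list, the 5 most correlated genes, neighbours in rank and in gene order, and those said to be picked after their values were seen. Some genes the rule takes are given in counts only. RefSeq GRCm38.p6 and GENCODE M21, used for sequences and gene order, belong to another build than mm9. Protein sequences were not used here. Alternatives changed the pseudocount, the filter, the scaling, the replicate block and the libraries used. The counts of listed genes with no filter, or without mCherry library 3 or etoposide library 3, were added after seeing the data.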

Additional observations from a re-analysis of the deposited data

How the results depend on the processing

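The levels of Lce1g, Crisp1 and Gimap6 kept their direction between H-Ras(G12V) and mCherry under each of the 10 alternatives run, and all 3 stayed among the genes switched on under 8 of 10. Asking for 20 FPKM dropped Lce1g, and asking for 5 and under 1 FPKM dropped Gimap6. With 20 and 2 FPKM, 6 genes were switched on and 1 off with H-Ras(G12V), and 0 off with etoposide. With 5 and 1 FPKM, 2 were off with H-Ras(G12V) and 12 off with etoposide. Leaving out each library in turn gave 12 to 22 genes on and 4 to 9 off with H-Ras(G12V), the 22 without mCherry library 3, and 0 to 23 on and 4 to 9 off with etoposide, the 23 without etoposide library 3. In the whole tables, limma called 2161 genes with H-Ras(G12V), 639 with mCherry libraries 1 and 2 averaged, and 496 (without H-Ras(G12V) library 1) to 5716 (without mCherry library 3) with a library left out. With etoposide it called 56 genes, 22 at a mean of at least 5 FPKM, and 4 (without DMSO library 3) to 3938 (without etoposide library 3) with a library left out. Relatives called higher numbered 5 of 6 tested, 8 of 37 with no filter and 2 of 2 at 5 FPKM. They numbered 3 of 4 with libraries scaled to a common sum and 3 of 7 with mCherry libraries 1 and 2 averaged. With a library left out they ranged from 1 of 3 (without H-Ras(G12V) library 1 or 2) to 5 of 8 (without mCherry library 3). The number tested changed with the setting, so the lower counts are not all lost calls. The share of calls that were higher with H-Ras(G12V) was 60.7% as deposited, 39.1% with a common sum and 49.1% with median-of-ratios scaling, while the median log2 fold change over all genes moved from 0.05 to -0.07 and -0.01. As deposited, the summed FPKM was 527539 to 544473 in the H-Ras(G12V) libraries and 480976 to 492439 in the mCherry libraries. With etoposide, the difference of Lce1g ranged from 0.28 to 0.92 with a library left out and was 0.92 with no filter and without etoposide library 3. That of Crisp1 ranged from -0.030 to 0.064, turning to -0.030 without DMSO library 1 and to -0.00020 without etoposide library 1, and that of Gimap6 from -0.40 to -0.24. The cause of these shifts was not tested. Libraries with the same replicate number had correlated deviations of -0.04 to 0.12 in the H-Ras(G12V) table, where other pairs had -0.12 to 0.11, and of -0.26 to -0.15 in the etoposide table, where other pairs had 0.03 to 0.19, so the numbers were not taken to pair them. A replicate block gave 1681 and 12 calls, and adjusted p-values of 0.424 for Lce1g, 0.922 for Crisp1 and 0.330 for Gimap6 with etoposide and no filter in limma. Levels under 1 FPKM, at unknown depth, limit what can be said of the 3 genes outside the H-Ras(G12V) libraries.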
